A study of Mus musculus with 6 samples.

Results

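The mitochondrial solute carrier family 25 was followed here across long-term haematopoietic stem cells (LT-HSCs) with low and high activity of a Trim47 reporter. Its members were taken by symbol alone, as every gene of the deposited table whose name begins with Slc25a and a number. This gave 46 of 26776 genes, of which 45 are annotated as protein-coding and 1, Slc25a5-ps, as a transcribed processed pseudogene. All cells were bone marrow cells of Trim47+/eGFP mice, so both groups share 1 Trim47 allele with a green fluorescent reporter (eGFP), going by the genotype name. Trim47 encodes a ubiquitin ligase of the tripartite motif family. LT-HSCs were sorted as eGFPlo or eGFPhi, with no further treatment named, and poly-A RNA was sequenced in 3 libraries a group. The age and number of the mice, the gate for LT-HSCs and the animals behind each library were all not given in the sources used here. All p-values therefore measure the spread between these libraries only, and that spread may be technical.

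Carriers of this family sit mostly in the inner mitochondrial membrane, where they move metabolites, nucleotides, cofactors or ions between the cytosol and the matrix. They are small proteins built from 3 repeats of a pair of membrane helices, and they reach the membrane through the TIM22 import pathway. Among them are the carriers that bring ADP and phosphate in and ATP out, those of the malate-aspartate shuttle, and those that supply iron and glycine for haem synthesis. LT-HSCs are known for a low rate of oxidative metabolism compared with their progeny.

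Libraries held 11221070 to 26058391 counts. Levels are given in CPM, read counts relative to library size after TMM scaling, as mean ± SD with n = 3 libraries. A fold change compares eGFPhi with eGFPlo in the quasi-likelihood fit of edgeR over all genes. Its standard error (SE) is on the log2 scale, and its p was adjusted over 18081 tested genes by Benjamini-Hochberg, with a threshold of 0.05. Trim47 was 7.28 to 8.92 CPM in eGFPlo and 21.6 to 26.2 CPM in eGFPhi, in the order of the labels, but the cells were sorted on its reporter. HSC markers had counts in both groups, and 9 of 10 were higher in eGFPhi, where the summed level of the 10 was 1979.9 to 2187 CPM against 931 to 969 CPM. In eGFPlo this sum was mostly Kit, at 539 ± 5.74 CPM. The lowest of the 10 there were Slamf1, at 4.75 ± 1.01 CPM, and Hoxb5, at 0.44 ± 0.0658 CPM. Markers of other cells differed too. The 8 granulocyte-monocyte progenitor markers all fell, from 5258 to 5366 summed CPM in eGFPlo to 288 to 295 CPM in eGFPhi. The 8 B lineage markers also fell, from 417 to 429.6 to 14.2 to 17.2 CPM, and Igll1, a surrogate light chain gene, had no count in eGFPhi. Of the 6 T and NK markers, 3 were tested and fell, with a summed level for all 6 of 55.1 to 56.5 against 7.55 to 8.41 CPM and no eGFPhi count for Trbc2, Cd3d, Cd3e and Cd3g. The 5 megakaryocyte markers rose, from 105 to 113 to 304 to 315 summed CPM. The 8 proliferation markers fell from 3781 to 3835 to 1679 to 1688 CPM. The part of these cells in the carrier results was not tested, and in bulk RNA fewer cells of a type and less RNA per cell cannot be told apart.

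The promoters of 6 members are shown because these genes carry the main contrasts below: the pyrimidine nucleotide carriers Slc25a33 and Slc25a36, which moved in opposite directions, the ADP/ATP carriers Slc25a4 and Slc25a5, of which 1 fell, and Slc25a18 and Slc25a43, which had no count in eGFPhi. Each window runs from 250 bases before to 50 bases after a RefSeq start on GRCm38.p6, 5′ to 3′ on the gene's strand. Capitals mark matches, on either strand, to 5 motifs: the E-box CACGTG, the ETS motif CCGGAAG, the GATA motif AGATAA, the NRF-1 motif (GCGCA, any base, GCGC) and the box CCAAT. None of these contains another. The Slc25a33 window is chr4:149774218-149774517 and that of Slc25a36 is chr9:97110992-97111291, both on the minus strand.
Slc25a33: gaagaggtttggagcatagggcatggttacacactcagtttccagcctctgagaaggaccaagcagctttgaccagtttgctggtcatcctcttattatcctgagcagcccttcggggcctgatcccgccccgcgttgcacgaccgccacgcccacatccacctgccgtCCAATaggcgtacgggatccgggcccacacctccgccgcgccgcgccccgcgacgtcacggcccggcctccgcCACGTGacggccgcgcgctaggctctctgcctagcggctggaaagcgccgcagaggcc
Slc25a36: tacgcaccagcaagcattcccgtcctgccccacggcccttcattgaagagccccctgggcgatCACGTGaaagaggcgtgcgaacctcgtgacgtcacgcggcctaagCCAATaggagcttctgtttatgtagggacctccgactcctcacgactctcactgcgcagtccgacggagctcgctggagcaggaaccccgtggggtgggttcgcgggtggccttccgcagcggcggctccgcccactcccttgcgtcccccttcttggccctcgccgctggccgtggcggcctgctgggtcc
The Slc25a4 window is chr8:46211013-46211312 on the minus strand and that of Slc25a5 is chrX:36795347-36795646 on the plus strand.
Slc25a4: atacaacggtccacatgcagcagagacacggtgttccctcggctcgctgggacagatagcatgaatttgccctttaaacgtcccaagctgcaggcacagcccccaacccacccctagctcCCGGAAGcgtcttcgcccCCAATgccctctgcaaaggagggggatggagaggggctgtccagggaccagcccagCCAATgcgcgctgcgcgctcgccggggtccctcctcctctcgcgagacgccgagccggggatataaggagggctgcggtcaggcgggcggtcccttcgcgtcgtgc
Slc25a5: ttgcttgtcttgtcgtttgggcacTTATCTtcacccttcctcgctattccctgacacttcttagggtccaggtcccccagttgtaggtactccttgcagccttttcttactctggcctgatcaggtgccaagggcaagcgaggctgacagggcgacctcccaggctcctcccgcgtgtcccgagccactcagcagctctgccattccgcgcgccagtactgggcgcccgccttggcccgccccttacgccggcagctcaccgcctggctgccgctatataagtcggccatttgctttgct
The Slc25a18 window is chr6:120773518-120773817 and that of Slc25a43 is chrX:36743382-36743681, both on the plus strand.
Slc25a18: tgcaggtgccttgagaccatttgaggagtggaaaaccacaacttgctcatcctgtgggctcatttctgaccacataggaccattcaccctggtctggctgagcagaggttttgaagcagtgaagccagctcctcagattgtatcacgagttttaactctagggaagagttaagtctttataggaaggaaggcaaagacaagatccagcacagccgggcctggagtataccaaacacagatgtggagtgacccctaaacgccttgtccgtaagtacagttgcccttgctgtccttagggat
Slc25a43: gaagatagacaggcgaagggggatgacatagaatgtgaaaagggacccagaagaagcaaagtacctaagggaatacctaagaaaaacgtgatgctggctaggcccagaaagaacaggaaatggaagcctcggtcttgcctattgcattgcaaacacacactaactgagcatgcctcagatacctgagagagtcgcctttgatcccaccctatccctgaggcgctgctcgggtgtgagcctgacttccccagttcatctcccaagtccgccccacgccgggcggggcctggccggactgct

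The windows of Slc25a33 and Slc25a36 each held 1 E-box and 1 CCAAT box, and the genes changed in opposite directions. The Slc25a4 window held 1 ETS motif and 2 CCAAT boxes, and the Slc25a5 window held 1 GATA motif and neither of those. The windows of Slc25a18 and Slc25a43 held none of the 5 motifs, and 4 and 11 CpG dinucleotides, against a median of 15 over the members' windows and of 7 over 32851 windows of all genes. RefSeq windows were matched for 34 of 46 members. Those without a match included Slc25a2, Slc25a26, Slc25a27, Slc25a32, Slc25a35, Slc25a37, Slc25a41, Slc25a44, Slc25a46, Slc25a51 and Slc25a5-ps. An E-box was found for 6 of the 34 (17.6%, against 8.09% of all 27025 genes with a window): in Slc25a1, Slc25a13, Slc25a15 and Slc25a33, which fell, in Slc25a36, which rose, and in Slc25a14. An ETS motif was found for 6 (17.6%, against 9.93%) and a CCAAT box for 19 (55.9%, against 41.1%). A GATA motif was found for 3 (8.82%, against 12.7%) and the NRF-1 motif for 1, Slc25a3 (2.94%, against 5.19%). The members' windows had a median GC content of 59.0%, against 52.7% over the windows of all genes. The E-box, ETS and NRF-1 motifs each contain a CpG, and the part of base content in these shares was not tested. Such matches describe letters in these windows and do not show binding.

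The family held both rises and falls, and its summed CPM was nearly the same in both groups. Its summed length-scaled level was lower in eGFPhi, by less than the fall of Slc25a5 alone. Of 46 members 43 passed the filter on low counts and were tested, and 10 of these rose while 15 fell, together 58.1%. Over all tested genes 64.0% were called, 32.3% higher and 31.7% lower. Counts for the groups and lists below are to be read beside these shares. The median log2 fold change was -0.07 over the 43 members and 0 over all tested genes, and it stayed at -0.07 with the members that had no count in eGFPhi set at their bound. The median size of the log2 fold change was 0.34 for members and 0.44 for all tested genes. Changes of at least 2-fold were called in 4 members (9.30%, against 22.5% of all tested genes): Slc25a18, Slc25a21, Slc25a43 and Slc25a44. Of these, Slc25a18, Slc25a21 and Slc25a43 passed the filter on low counts only through their eGFPlo libraries, so their direction is a description and supports nothing further. The values of both groups did not overlap for 30 of 43 members (69.8%, against 69.8% of all tested genes). Summed over all members, the family held 1353 ± 15.6 CPM in eGFPlo and 1356 ± 11 CPM in eGFPhi. With each member divided by its merged exon length, the sum was 384.6 ± 3.36 CPM per kilobase in eGFPlo and 361.5 ± 1.55 in eGFPhi, with no overlap. Slc25a5 alone went from a mean of 108 CPM per kilobase in eGFPlo to 80.3 in eGFPhi. This is a larger fall than that of the sum, so the sum of the other members was not lower in eGFPhi. The rises ran from 1.09-fold to 1.81-fold, and the 13 falls with counts in both groups from 1.10-fold to 6.70-fold. Of the 25 called members, 9 were also called under every alternative setting in which they were tested: Slc25a27, Slc25a28 and Slc25a38 among the rises and Slc25a17, Slc25a18, Slc25a21, Slc25a33, Slc25a43 and Slc25a44 among the falls. Slc25a18, Slc25a21 and Slc25a43 were not tested with a filter of 5 CPM in 3 libraries, and their calls remain a description only. The other 16 of the 25 lost the call with an assumed coefficient of variation of 0.2, in place of the 0.0941 estimated from these libraries. DESeq2 did not call Slc25a3, Slc25a15, Slc25a42, Slc25a46 and Slc25a5-ps (adjusted p = 0.0575, 0.0941, 0.0800, 0.137 and 0.109). With upper-quartile factors 14 members rose and 14 fell, with Slc25a4, Slc25a20, Slc25a25 and Slc25a47 past the threshold and Slc25a46 no longer past it. Exons of 13 members overlap a gene on the opposite strand, the longest overlap being that of Slc25a35 (1151 bases with Rangrf). Among the others are Slc25a37 (473 bases), Slc25a46 (383 bases), Slc25a25 (379 bases with Naif1) and Slc25a33 (281 bases with Gm13068). Slc25a11 (189 bases with Rnf167), Slc25a21 (189 bases with Pax9) and Slc25a18 (32 bases with Atp6v1e1) are also among them. Whether the counting used strand is not known, so reads of these genes and their partners cannot be told apart. Members can also share 50-base stretches of transcript sequence with other genes. Besides Slc25a5, treated below, the share was over 5% for Slc25a37 (6.99%), Slc25a36 (6.70%), Slc25a5-ps (6.15%) and Slc25a20 (5.61%).

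**Figure D1:**
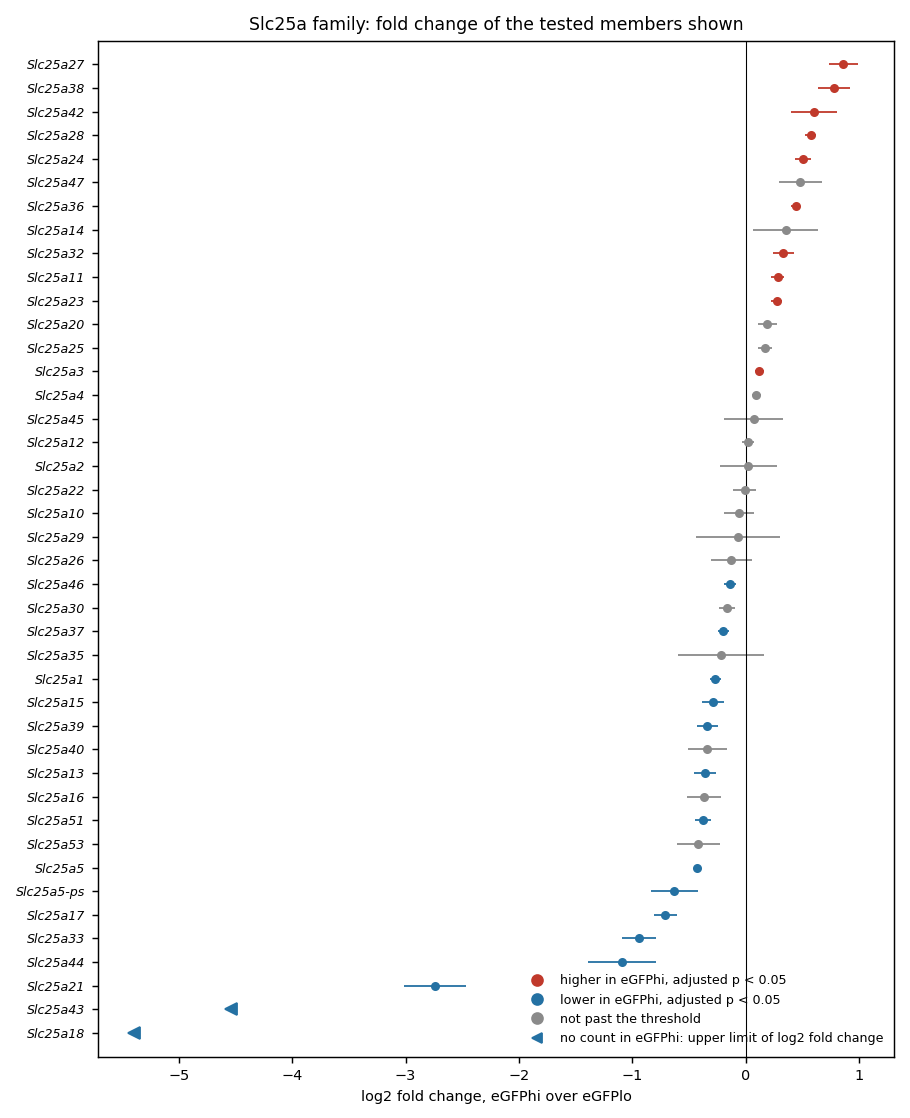
Log2 fold change of the tested members described in the text, eGFPhi over eGFPlo (points, with SE as bars), ordered by size, with red for members higher and blue for members lower at an adjusted p under 0.05. Slc25a27 is highest at 0.86, and arrowheads for Slc25a18 and Slc25a43 mark upper limits, since neither had a count in eGFPhi.

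Per length of merged exons, the members spanned a wide range, led by the carriers of ADP, ATP and phosphate. Slc25a5, the ADP/ATP carrier of dividing cells, had the highest length-scaled level, 107 to 109 CPM per kilobase in eGFPlo and 79.6 to 80.6 in eGFPhi. The phosphate carrier Slc25a3 followed, at 37.7 to 41.8 against 41.9 to 44.4 CPM per kilobase, and then Slc25a4, the ADP/ATP carrier of heart and muscle, at 34.4 to 36.5 against 37.1 to 38.4. The ranges of Slc25a3 and Slc25a4 did not overlap within a group, so with merged exon lengths their order held in each of the 6 libraries. It depends on the length used, however. The deposited FPKM imply lengths 1.51 times the merged exons for Slc25a3 and 1.15 times for Slc25a4, and those lengths would reverse the order. The oxoglutarate-malate carrier Slc25a11 was at 15.1 to 15.9 against 17.8 to 19.7 CPM per kilobase and the citrate carrier Slc25a1 at 17.9 to 18.6 against 15.1 to 15.3. These neighbours changed places between groups, with Slc25a1 above Slc25a11 in each eGFPlo library and below it in each eGFPhi library. Together these 5 members made up 56.0 to 57.1% of the summed length-scaled level of the family in eGFPlo and 53.4 to 54.5% in eGFPhi.

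**Figure D2:**
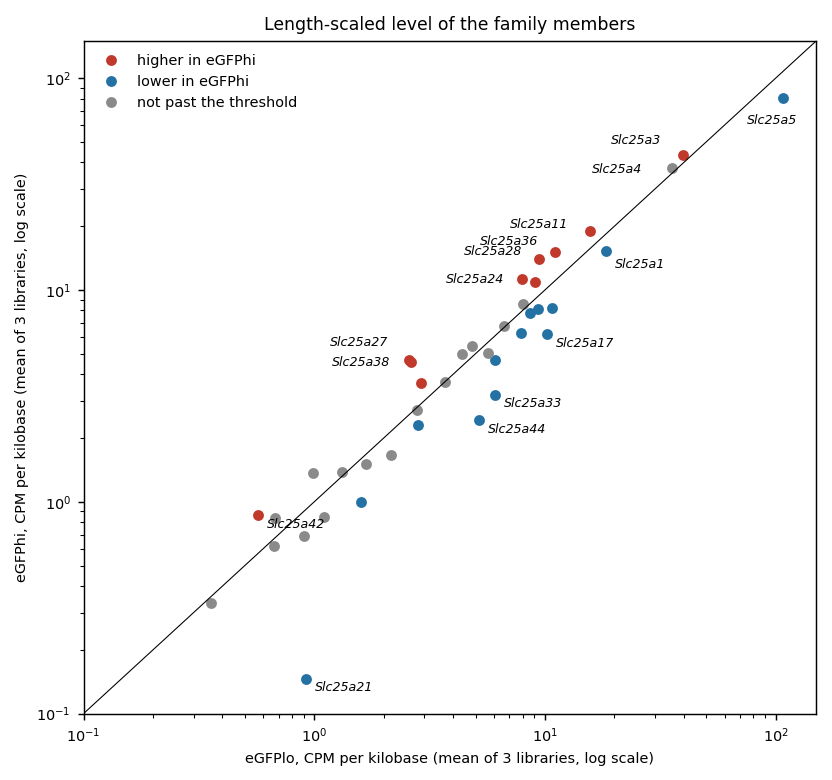
Length-scaled level (CPM per kilobase of merged exons, mean of 3 libraries, both axes on a log scale) in eGFPlo and eGFPhi for tested members with counts in both groups, coloured by call (red higher, blue lower, grey not past the threshold), and the line marks equal levels. Slc25a5 stands at the top right and below the line, and Slc25a21 lies farthest below it.

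Among the carriers of ADP, ATP and phosphate, 1 of 3 tested members fell and 1 rose. Slc25a5 (ENSMUSG00000016319, chromosome X, 36795651 to 36798807, plus strand) was at 176, 177 and 179 CPM in eGFPlo replicates 1 to 3 and at 133, 133 and 131 CPM in eGFPhi replicates 1 to 3. All eGFPhi libraries lay below all eGFPlo libraries, a 1.34-fold decrease (log2 fold change -0.43, SE 0.03, adjusted p = 5.97e-06). Of its distinct 50-base stretches of transcript sequence, 33.8% also occur in annotated transcripts of other genes, among them processed pseudogenes, so its count can depend on how shared reads were assigned. Its pseudogene Slc25a5-ps (chromosome 14, 11161529 to 11181110) was 1.55-fold lower, at 3.60, 3.15 and 3.32 against 1.42, 2.38 and 2.47 CPM (log2 fold change -0.63, SE 0.21, adjusted p = 0.0312). That call was lost without eGFPlo replicate 1, 2 or 3 (adjusted p = 0.0806, 0.0529 and 0.0689) and with the replicate number as a block (adjusted p = 0.0626). Slc25a3 (chromosome 10, 91116574 to 91124059) was at 209, 222 and 232 CPM against 242, 232 and 247 CPM, a 1.09-fold rise (log2 fold change 0.12, SE 0.04, adjusted p = 0.0374). Without eGFPlo replicate 1 or 2, or eGFPhi replicate 1 or 3, its adjusted p was 0.0980, 0.0785, 0.0623 and 0.0879. Slc25a4 (chromosome 8, 46206797 to 46211284) was at 82.8, 81.0 and 85.9 against 87.4, 87.6 and 90.4 CPM, and did not pass the threshold although its groups did not overlap (log2 fold change 0.09, SE 0.04, adjusted p = 0.0711). The calcium-regulated ATP-Mg/phosphate carriers, which set the matrix pool of adenine nucleotides, rose in 2 of 3 tested cases. Slc25a24 (chromosome 3, 109123149 to 109168457) was at 29.2, 25.3 and 27.5 against 36.9, 40.9 and 37.4 CPM, with no overlap, and rose 1.41-fold (log2 fold change 0.50, SE 0.07, adjusted p = 6.37e-04). Slc25a23 rose 1.21-fold from 47.8 ± 0.756 to 57.5 ± 3.27 CPM. Slc25a25 was at 37.9 ± 2.55 and 42.6 ± 1.88 CPM (adjusted p = 0.0544), and passed without eGFPlo replicate 3 (adjusted p = 0.0214). Slc25a41 had 0 to 3 counts a library and was not tested.

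Of 9 tested carriers of amino acids 4 fell and 1 rose. The aspartate/glutamate carriers of the malate-aspartate shuttle differed from each other: Slc25a13, citrin, fell 1.29-fold from 23.0 ± 0.255 to 17.7 ± 2.20 CPM (adjusted p = 0.0121), while Slc25a12, aralar, was at 49.0 ± 0.999 and 49.7 ± 3.02 CPM (adjusted p = 0.812). The glutamate carrier Slc25a22 was at 22.2 ± 1.17 and 22.1 ± 2.57 CPM (adjusted p = 0.963). Its relative Slc25a18 (chromosome 6, 120773578 to 120794336) was at 2.14, 2.73 and 1.88 CPM in eGFPlo, from 25, 39 and 34 counts, and had no count in any eGFPhi library. Against a floor of 3 counts over the eGFPhi group, or 0.0529 CPM, this is at least 42.1-fold lower, with the bound covering counting error only. The gene passed the filter only through eGFPlo, so its values are given as a description. The glycine carrier Slc25a38 (chromosome 9, 120110374 to 120124504), which feeds the first step of haem synthesis, was at 5.74, 8.25 and 7.70 CPM in eGFPlo and at 12.6, 13.3 and 11.6 CPM in eGFPhi. It rose 1.72-fold with no overlap (log2 fold change 0.78, SE 0.14, adjusted p = 0.00198). Slc25a44 (chromosome 3, 88410498 to 88425139), a carrier of branched-chain amino acids, was at 21.4, 24.2 and 10.1 CPM in eGFPlo and at 8.54, 8.45 and 8.99 CPM in eGFPhi. It fell 2.12-fold (log2 fold change -1.09, SE 0.30, adjusted p = 0.0139), but eGFPlo replicate 3 lay near the eGFPhi values, and without that library the log2 fold change was -1.40. The ornithine carrier Slc25a15 fell 1.22-fold from 15.9 ± 1.19 to 13.0 ± 0.999 CPM (adjusted p = 0.0314). That call was lost without eGFPlo replicate 3 or eGFPhi replicate 1 or 2 (adjusted p = 0.103, 0.0735 and 0.102). Slc25a2, its close relative, and the basic amino acid carrier Slc25a29 were under 3 CPM in each library and did not pass (adjusted p = 0.941 and 0.882).

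Of 5 carriers of organic acids 2 fell and 1 rose, and among them was the largest fall of a member counted in both groups. Slc25a21 (chromosome 12, 56712634 to 57197472), the oxodicarboxylate carrier of lysine and tryptophan breakdown, was at 4.28, 4.54 and 4.60 CPM in eGFPlo and at 1.07, 0.653 and 0.411 CPM in eGFPhi. The groups lay far apart, and the fall was 6.70-fold (log2 fold change -2.74, SE 0.27), for a gene that passed the filter only through eGFPlo. Slc25a1 (chromosome 16, 17925223 to 17928219), which exports citrate, was at 40.0, 40.2 and 38.7 against 33.2, 32.6 and 32.7 CPM, and fell 1.21-fold (log2 fold change -0.27, SE 0.05, adjusted p = 0.00149). Slc25a11 (chromosome 11, 70644196 to 70647479), which exchanges oxoglutarate for malate, went the other way, at 32.0, 33.8 and 33.3 against 41.8, 37.8 and 40.8 CPM, a 1.21-fold rise (log2 fold change 0.28, SE 0.06, adjusted p = 0.00372). The carnitine/acylcarnitine carrier Slc25a20 was at 21.1 ± 0.717 and 24.2 ± 1.79 CPM (adjusted p = 0.0552), and passed without eGFPhi replicate 3 (adjusted p = 0.0253). The dicarboxylate carrier Slc25a10 was at 9.69 ± 0.764 and 9.35 ± 1.34 CPM (adjusted p = 0.725).

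Of 9 carriers of coenzymes and nucleotides, 3 rose and 3 fell. The pyrimidine nucleotide carriers moved apart. Slc25a33 (chromosome 4, 149744036 to 149774277) was at 11.2, 12 and 11 CPM in eGFPlo and at 7.39, 5.15 and 5.60 CPM in eGFPhi, which is a 1.92-fold fall with no overlap (log2 fold change -0.94, SE 0.15, adjusted p = 8.57e-04). Slc25a36 (chromosome 9, 97074961 to 97111157) was at 106, 109 and 105 CPM against 138, 147 and 149.8 CPM, a 1.36-fold rise with no overlap (log2 fold change 0.44, SE 0.04, adjusted p = 5.00e-05). The promoters printed above for this pair share an E-box and a CCAAT box. Slc25a17 (chromosome 15, 81318911 to 81360812), the cofactor carrier of peroxisomes, was at 31.4, 26.1 and 29.4 against 15.9, 18.7 and 18.3 CPM, a 1.63-fold fall (log2 fold change -0.71, SE 0.10, adjusted p = 4.31e-04). The mitochondrial NAD carrier Slc25a51 fell 1.30-fold from 59.2 ± 1.86 to 45.3 ± 4.02 CPM, and shares 125 exonic bases with Gm25692 on the same strand. The coenzyme A carrier Slc25a42 (chromosome 8, 70184340 to 70212305) was at 2.83, 4.54 and 2.88 against 4.90, 5.11 and 5.50 CPM, a 1.52-fold rise (log2 fold change 0.60, SE 0.20, adjusted p = 0.0303). That call was lost without eGFPlo replicate 1 or 3 or eGFPhi replicate 2 or 3 (adjusted p = 0.0886, 0.101, 0.0642 and 0.0797). The folate carrier Slc25a32 rose 1.25-fold from 17.6 ± 0.568 to 22.1 ± 2.19 CPM. Slc25a16 was at 10.3 ± 1.81 and 7.95 ± 0.826 CPM (adjusted p = 0.0650), and passed without eGFPlo replicate 2 (adjusted p = 0.0214) and with the replicate block (adjusted p = 0.0451). The S-adenosylmethionine carrier Slc25a26 did not pass (adjusted p = 0.542).

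The mitoferrins, which carry iron into the matrix, moved in opposite directions, and of the 4 carriers of iron and glutathione 1 rose and 2 fell. Slc25a28 (mitoferrin-2, chromosome 19, 43663801 to 43674881), the form found in most tissues, was at 36.2, 35.3 and 34.7 CPM in eGFPlo and at 49.1, 54.2 and 54.1 CPM in eGFPhi, which is a 1.49-fold rise with no overlap (log2 fold change 0.57, SE 0.05, adjusted p = 7.33e-05). Slc25a37 (mitoferrin-1, chromosome 14, 69241848 to 69285112), the form of erythroid cells, was at 54.5, 59.1 and 54.7 against 50.3, 49.6 and 46.4 CPM, a 1.15-fold fall (log2 fold change -0.20, SE 0.05, adjusted p = 0.0120). Of 9 erythroid markers 7 fell in the same libraries, with a summed level of 176 to 183 CPM in eGFPlo and 96.7 to 105 CPM in eGFPhi, and their part in these changes was not tested. The glutathione carrier Slc25a39 fell 1.26-fold from 21.7 ± 1.74 to 17.2 ± 0.954 CPM (adjusted p = 0.0108). Its paralogue Slc25a40 was at 9.23 ± 0.928 and 7.12 ± 1.54 CPM (adjusted p = 0.107), and passed without eGFPhi replicate 2 (adjusted p = 0.0193).

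Of the uncoupling-protein-like carriers, Slc25a27 (UCP4, chromosome 17, 43641891 to 43667214) rose most in the family. It stood at 8.74, 11 and 10.6 CPM in eGFPlo and at 15.7, 18.8 and 20.7 CPM in eGFPhi, which is a 1.81-fold rise with no overlap (log2 fold change 0.86, SE 0.13, adjusted p = 8.83e-04). Slc25a30 was at 26 ± 0.974 and 23.0 ± 1.65 CPM (adjusted p = 0.0784), and Slc25a14 was under 3 CPM in each library (adjusted p = 0.328). Slc25a46, an outer membrane member that acts in mitochondrial fusion and fission, fell 1.10-fold from 46.5 ± 1.13 to 42.2 ± 1.39 CPM (adjusted p = 0.0311). That call was lost without eGFPlo replicate 1 or 3 or eGFPhi replicate 2 or 3 (adjusted p = 0.0839, 0.0567, 0.0796 and 0.112), with upper-quartile factors (adjusted p = 0.0622) and with no filter (adjusted p = 0.0555).

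Of the 5 tested members whose substrates are less settled, 1 fell. Slc25a43 (chromosome X, 36743659 to 36777202) held 1.03, 1.19 and 1.38 CPM in eGFPlo, from 12, 17 and 25 counts, and had no count in eGFPhi. This is at least 23.2-fold lower against the same floor, and it too passed the filter only through eGFPlo. It lies 18448 bases upstream of Slc25a5 on the same strand, with no annotated gene between them. Slc25a45 was at 22.2 ± 3.57 and 23.7 ± 8.04 CPM (adjusted p = 0.834), with eGFPhi replicate 2 at 14.7 CPM and the other libraries of that group at 30.2 and 26.3 CPM. Slc25a47 was at 2.96 ± 0.723 and 4.10 ± 0.255 CPM (adjusted p = 0.0551), and passed without eGFPlo replicate 1 (adjusted p = 0.0117). In the GENCODE M21 annotation its gene boundary lies 162 bases from that of Slc25a29 on the opposite strand. Its RefSeq promoter window lies elsewhere, at chr12:108850879-108851178. Slc25a53 was at 7.18 ± 0.364 and 5.50 ± 1.56 CPM (adjusted p = 0.0908), and passed without eGFPhi replicate 1 (adjusted p = 0.00488). Slc25a35 was under 2 CPM in each library (adjusted p = 0.634). Slc25a34 had 0 to 7 counts and Slc25a48 had 0 to 5 counts a library, and neither was tested.

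**Figure D3:**
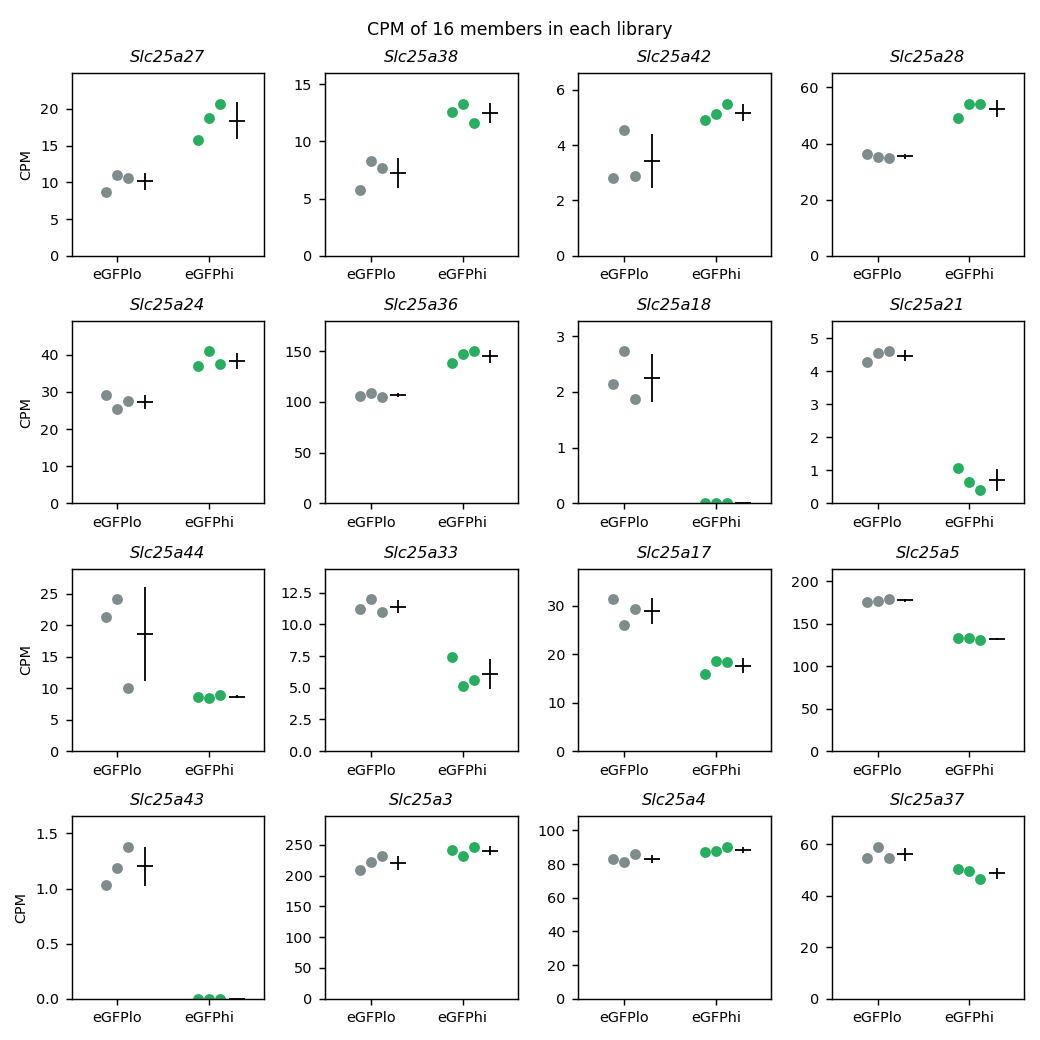
CPM of 16 members in each library (grey for eGFPlo, green for eGFPhi, with mean and SD beside the points; each panel has its own axis from 0). In Slc25a44 the lowest eGFPlo library, at 10.1 CPM, lies close to the eGFPhi libraries, while for Slc25a5 and Slc25a36 the 3 values of each group lie close together.

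Ratios between related carriers compare genes within a library and do not depend on the scaling between libraries. The counts of each gene were divided by its merged exon length first, and 7 ratios were formed. The ratio of Slc25a5 to Slc25a4 was 3.04, 3.13 and 2.98 in eGFPlo and 2.17, 2.17 and 2.07 in eGFPhi, so that it was 1.43-fold lower in eGFPhi with no overlap. The ratio of Slc25a28 to Slc25a37 was 1.07, 0.960 and 1.02 in eGFPlo and 1.57, 1.76 and 1.87 in eGFPhi, 1.70-fold higher. Its size within a group depends on the lengths used, while its change between groups does not. The deposited FPKM imply lengths 1.56 times the merged exons for Slc25a28 and 2.03 times for Slc25a37. The ratio of Slc25a36 to Slc25a33 was 1.85, 1.78 and 1.89 in eGFPlo and 3.67, 5.61 and 5.26 in eGFPhi, 2.59-fold higher and the largest shift among the 7. For Slc25a12 to Slc25a13 the ratio was 1.09, 1.11 and 1.10 in eGFPlo and 1.81, 1.27 and 1.34 in eGFPhi, 1.32-fold higher, and for Slc25a24 to Slc25a23 it was 1.17-fold higher. The ratios of Slc25a39 to Slc25a40 and of Slc25a25 to Slc25a23 overlapped between groups. For each of the 5 ratios without overlap an exact two-sided permutation test gave p = 0.1, the smallest that 3 libraries against 3 allow, and an adjusted p of 0.14 over the 7 ratios, so none passed the threshold.

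**Figure D4:**
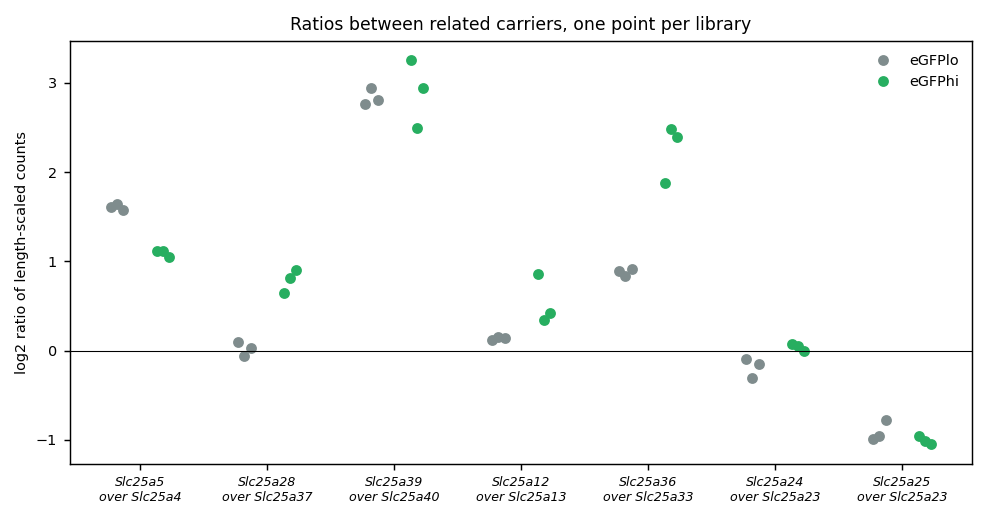
Log2 ratio of length-scaled counts between related carriers, with 1 point per library (grey for eGFPlo, green for eGFPhi). The points of Slc25a36 over Slc25a33 lie farthest apart, with ratios of 1.78 to 1.89 in eGFPlo and 3.67 to 5.61 in eGFPhi, and those of Slc25a39 over Slc25a40 overlap.

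Members of the same protein family that carry other symbols were read alongside. Ucp2, an uncoupling protein gene of blood cells, stood at 339.6 ± 9.84 CPM in eGFPlo and fell 1.93-fold in eGFPhi, with 176 ± 2.71 CPM left there (log2 fold change -0.95, SE 0.03, adjusted p = 2.77e-07). Of the outer membrane members, Mtch2 fell from 18.7 ± 1.21 to 13.4 ± 0.779 CPM and Mtch1 rose from 37.7 ± 0.698 to 43.4 ± 0.790 CPM. In the pathway that imports carriers, 7 of 10 genes fell (70%, against 64.0% of all tested genes called and 31.7% called lower). The other 3 did not pass, and the median log2 fold change of the 10 was -0.38. Of the small chaperones of the intermembrane space, Timm9, Timm8b, Timm13 and Timm10b fell by 0.68, 0.65, 0.50 and 0.49 on the log2 scale. Timm10, another of them, did not pass (log2 fold change -0.01, adjusted p = 0.979). The translocase subunit Timm22 was at 14.6 ± 0.745 and 15.0 ± 0.473 CPM (adjusted p = 0.715). Granulocyte-monocyte progenitor and proliferation markers fell in the same libraries, and their part in these falls was not tested.

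Of 11 other inner membrane carriers and channels, 5 rose and 4 fell (81.8% called, against 64.0% of all tested genes). The sideroflexins, some of which carry serine, did not move as 1 group. Sfxn5, Sfxn3 and Sfxn2 rose by 1.31, 0.90 and 0.61 on the log2 scale, while Sfxn1 fell from 93.7 ± 2.68 to 69.2 ± 4.08 CPM. Sfxn4, at 4.04 ± 0.196 and 5.94 ± 0.874 CPM, also rose. The pyruvate carrier subunit Mpc2 fell from 32.6 ± 1.70 to 22.3 ± 1.84 CPM, while Mpc1 was at 7.70 ± 0.464 and 8.45 ± 0.555 CPM (adjusted p = 0.316). Of the outer membrane channels Vdac2 fell, and Vdac1 and Vdac3 did not pass (adjusted p = 0.0748 and 0.720); without eGFPlo replicate 2, 2 of these 3 fell. Of the malate-aspartate shuttle enzymes, the mitochondrial forms Mdh2 (153 ± 1.41 against 108 ± 2.15 CPM) and Got2 (91.5 ± 3.01 against 62.1 ± 2.71 CPM) fell, and the cytosolic forms Mdh1 and Got1 did not pass (adjusted p = 0.754 and 0.222).

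Haem synthesis genes, which use the glycine and iron that Slc25a38 and the mitoferrins carry, fell in 5 of 9 tested cases and rose in 1. This is 66.7% called, against 64.0% of all tested genes, and their median log2 fold change was -0.50. Alas1, which encodes the first enzyme of the pathway, was at 109.7 ± 8.84 CPM in eGFPlo against 21.1 ± 0.320 CPM in eGFPhi, a fall of 5.21-fold (log2 fold change -2.38, SE 0.07, adjusted p = 1.98e-07). Its erythroid form Alas2 was under the filter, at 0.544 ± 0.473 and 0.367 ± 0.0154 CPM. Alad and Abcb10 fell by 0.74 and 0.62 on the log2 scale, while Fech, the ferrochelatase gene, rose from 37.9 ± 1.97 to 46.5 ± 1.37 CPM. Of 13 iron-sulfur cluster genes 5 rose and 6 fell (84.6% called, against 64.0% of all tested genes). Isca1 rose from 120.1 ± 3.68 to 249.6 ± 5.76 CPM and Lyrm4 from 6.47 ± 0.714 to 11.5 ± 0.844 CPM, while the ferredoxin gene Fdx2 fell from 5.72 ± 0.273 to 4.01 ± 0.418 CPM. Of 4 glutathione genes, the reductase gene Gsr fell from 158 ± 4.50 to 56.6 ± 3.95 CPM, Gclc fell and Gclm rose. Erythroid and granulocyte-monocyte progenitor markers fell beside these genes, and their part was not tested.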

How the data were processed

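Poly-A RNA of 6 LT-HSC libraries was sequenced in pairs from a stranded kit, per the labels' protocols. The submitters' processing notes name CASAVA 1.8, HISAT2, StringTie and edgeR without roles, and the builds hg38 and GRCm38. How reads were counted (tool, strand, reads shared between genes) is likewise not given in the sources used here. As counts per gene and library and as FPKM, the authors deposited 1 table, whose counts were taken as raw reads per the file headers. The authors' deposited FPKM imply gene lengths of 1.0 to 2.842 times the merged GENCODE M21 exons over 39 members, with a median of 1.44. Merged exons were therefore used for length scaling, and levels compared between genes depend on that choice.

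The deposited counts went into edgeR 4.0.16 (R 4.3.3): filterByExpr at its defaults (minimum count 10, total 15), TMM factors, and quasi-likelihood F tests of the group term without covariates, adjusted by Benjamini-Hochberg over 18081 genes. The kept genes held 99.7 to 99.9% of counts, and 3 counts in 1 library are 0.115 to 0.267 CPM. Members, lists and the rule for naming genes were chosen with earlier results of these data known. By that rule the 6 largest rises and falls among called members of at least 1 CPM and the 5 highest length-scaled levels get values per library, and the lists up to 4 called genes, those that changed most. Per-library values of further members (Slc25a37, Slc25a43) and other list genes were chosen after their values were seen. Results of 1 member and of some list genes are not reported here, but they remain in the counts and sums. Alternatives were RLE and upper-quartile factors, DESeq2 1.42.0, no filter, a filter of 5 CPM in 3 libraries, the replicate block, an assumed coefficient of variation of 0.2 and leaving out each library. On simulated data (18081 genes) the fit called 90.9 to 93.9% of genes changed by 1 on the log2 scale, 35.5 to 54.5% of those changed by 0.5 and 0.0344% of unchanged genes. In that simulation 17424 of the tested genes were unchanged and all genes had the same coefficient of variation. In the data 64.0% of tested genes were called, so these shares check the fit and do not give its power or error rate here. Sequence matches used exact 50-base stretches of GENCODE M21 transcripts, and promoters came from RefSeq (GRCm38.p6).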

Additional observations from a re-analysis of the deposited data

How the results depend on the processing

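Of the 25 called members, 25 kept call and direction with RLE factors, 24 with upper-quartile factors, with no filter and with the replicate block, and 20 with DESeq2. With the filter of 5 CPM in 3 libraries 33 members were tested and 20 of the 25 kept the call, while the other 5 were not tested. Leaving out 1 library kept 21 to 23, with 9 to 10 members higher and 12 to 15 lower. Upper-quartile factors gave 14 higher and 14 lower. An assumed coefficient of variation of 0.2 left 3 members higher and 6 lower, and 3637 and 2982 of all genes. In that setting the carrier import list kept 2 falls, the other inner membrane carriers 3 rises and 0 falls, and iron-sulfur assembly 2 rises and 1 fall. The glutathione genes, which include the reductase gene Gsr, kept 0 rises and 1 fall, and family members under other symbols 0 rises and 1 fall. Haem synthesis kept 0 rises, and the channels and shuttle enzymes 0 falls. Channels lower in eGFPhi ranged from 1 to 2 with a library left out. These changes follow from the larger spread assumed in that setting. No called member changed direction in any setting. Among uncalled members the log2 fold change crossed 0 when a library was left out, ranging from -0.30 to 0.43 for Slc25a29, -0.02 to 0.05 for Slc25a12, -0.15 to 0.25 for Slc25a2, -0.45 to 0.16 for Slc25a35, -0.13 to 0.06 for Slc25a10, -0.07 to 0.09 for Slc25a22, -0.25 to 0.04 for Slc25a26 and -0.12 to 0.34 for Slc25a45. Slc25a22 was also at 0.02 with upper-quartile factors and 0.01 with no filter and with the stricter filter. The cause was not tested.

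Both groups use the same replicate numbers, with no label that ties a number to an animal or day. Deviations of same-numbered libraries from their group means had correlations across genes of -0.0133, 5.55e-04 and -0.0108, and no eGFPlo library correlated best with its own number. With the replicate block 10 members were higher and 15 lower, and 5551 and 5414 of all genes. Within groups, libraries differed by more than counting noise, with a chi-square per degree of freedom of 3.97 to 5.45. Depth limits the members under 1 CPM, where 3 counts in 1 library are up to 0.267 CPM.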
